A study of Homo sapiens with 6 samples.

Results

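The genes described here are 4 cytokines of the interleukin-6 (IL-6) family, IL6, LIF, IL11 and CLCF1, and 6 cytokine receptor chains, IL6R, IL6ST, LIFR, OSMR, IL20RB and IL22RA1. They were chosen by name, and all 10 were found among the 40488 Ensembl genes of the deposited table. RNA was measured by sequencing in SCC90, an established line of HPV-positive oropharyngeal squamous cell carcinoma, in 3 libraries from cells given a scrambled siRNA (siCTRL) and 3 from cells given an siRNA against ΔNp63 (siDNp63). RNA was taken 72 h after transfection, with the siRNA at 10 nM according to the labels, while the study's methods text names another concentration. The study asked which genes depend on ΔNp63, the p63 form that lacks the N-terminal activation domain and is the main p63 protein of basal squamous cells.

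Cytokines of the IL-6 family act through receptors that share the signalling chain gp130, encoded by IL6ST. IL-6 binds IL6R and IL-11 binds IL11RA before either engages gp130, whereas LIF and oncostatin M bring gp130 together with LIFR or OSMR. CLCF1 signals through CNTFR, LIFR and gp130. Signalling runs through the JAK kinases to STAT3 and is restrained by SOCS proteins. IL20RB and IL22RA1 belong to another receptor family, that of IL-10, and are typical of epithelia. IL20RB pairs with IL20RA or IL22RA1 to bind IL-20 and IL-24, and IL22RA1 pairs with IL10RB to bind IL-22, and these cytokines also act through STAT3 in keratinocytes.

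A strand that the labels list for the transfected siRNA is shown first, followed by promoters of 2 members that passed the test. Only IL11 and IL22RA1 are shown because their 250 bases lie wholly outside the annotated gene, whereas those of IL6R and LIFR, which also passed, lie partly or wholly inside it. One of the siRNA strands in the labels, there called antisense, matched the plus strand of TP63 at chr3:189789808-189789828 of GRCh38, inside exon 1 of 8 annotated transcripts. The strand called sense (19 bases) had no exact match in the TP63 locus and is not complementary to the other (21 bases). The labels therefore do not settle which duplex was transfected, and the strand shown is only a listed sequence.
siRNA strand that matched: acctggaaaacaatgcccaga

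Promoter windows of RefSeq (GRCh38.p14), from 250 bases before to 50 after a start site, were found for 8 of the 10 members in 10 windows, 3 of them for LIFR. LIF and CLCF1 had none in the table. Both strands were searched for AP-1 (TGANTCA), STAT (TTCNNNGAA), the NF-κB consensus and the p53 family half-site. In the lines below, capitals mark AP-1 and NF-κB matches in the 250 bases before the start site. IL11 was lower in siDNp63 and IL22RA1 was higher.
IL11 (chr19:55370464-55370713, minus strand): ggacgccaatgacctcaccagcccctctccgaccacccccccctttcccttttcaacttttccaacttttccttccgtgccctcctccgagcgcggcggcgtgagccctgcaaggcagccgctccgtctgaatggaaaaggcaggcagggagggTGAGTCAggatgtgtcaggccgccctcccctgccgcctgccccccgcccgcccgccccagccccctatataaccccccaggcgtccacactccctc
IL22RA1 (chr1:24143141-24143390, minus strand): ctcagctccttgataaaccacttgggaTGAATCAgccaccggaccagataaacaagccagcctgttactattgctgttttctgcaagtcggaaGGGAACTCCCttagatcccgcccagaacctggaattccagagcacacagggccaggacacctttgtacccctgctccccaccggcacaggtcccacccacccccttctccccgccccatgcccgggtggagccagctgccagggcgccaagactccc

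The AP-1 letters lay 96 bases before the start site in IL11 and 223 before it in IL22RA1. In IL6R, whose window is not printed, they lay at base 38 after the start site, and in OSMR at base 4 after it. The AP-1 letters were thus found in 4 of the 8 members, or 4 of their 10 windows, and in 7.71% of all 35116 windows of the same length. STAT letters (7.66% of all windows) were found before 2 of the 3 LIFR start sites and in no other member. The NF-κB consensus (11.3% of windows) was found in IL6, IL6ST and IL22RA1, and the p53 family half-site (6.63%) only in 1 LIFR window. Members that fell, members that rose and OSMR, which did not pass the test, all appear among those with the AP-1 letters.

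Library totals were between 35716277 and 52598831 expected counts, which are kallisto's estimates of reads per gene. The values below are TMM-normalized counts, scaled so that libraries can be compared, and a log2 fold change under 0 means a lower level in siDNp63. TP63 itself fell from 42975 ± 966 to 14985 ± 570.4 normalized counts (mean ± SD, n = 3 each) (log2 fold change -1.52, SE 0.04, where SE is the standard error of the log2 value). P-values come from edgeR's quasi-likelihood test over 17257 genes with Benjamini-Hochberg adjustment, and a gene is called at an adjusted p under 0.05. Neither the labels nor the methods say that the replicates were separate cultures, and the p-values therefore reflect the variation among these 6 libraries alone, part of which may be technical. In bulk RNA, fewer cells expressing a gene and less RNA per cell cannot be told apart. The siDNp63 replicate 1 library lay apart from the other two of its group (second principal component -39.1 against 25.6 and 24.8).

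Markers of epithelium were abundant in every library, with a summed level of 4708 to 4943 TPM (the abundance of transcripts relative to all others, per transcript length) in siCTRL and 5021 to 5701 TPM in siDNp63. Of the 13 epithelial markers, all tested, 7 rose and 2 fell, among them KRT14 (log2 fold change 1.42), KRT18 (0.84), KRT8 (0.74) and CDH1 (0.62) upward and ITGB4 (-0.83) and KRT15 (-0.37) downward. Leukocyte markers summed to 14.7 to 16.3 TPM in siCTRL and 11.8 to 12.8 TPM in siDNp63, with CD3D and MS4A1 listed at 0 in every library, and 1 of their 4 tested genes, CD14, fell. Fibroblast markers summed to 10.4 to 12.0 and 6.59 to 10.4 TPM, with PDGFRB and FAP listed at 0, and 1 of 5 tested genes, DCN, fell. Endothelial markers summed to 3.00 to 3.63 and 11.9 to 14.3 TPM, and all 3 that were tested, KDR, PECAM1 and VWF, rose. Calls covered 69.2% of the epithelial, 25% of the leukocyte, 20% of the fibroblast and 100% of the endothelial markers tested, against 33.6% of all genes. The part of these marker genes in the results below was not tested.

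Of the 10 members, 9 passed the filter on low counts, and 3 of them fell (IL6R, LIF and IL11) while 2 rose (IL22RA1 and LIFR). Over all genes tested, 15.2% fell, 18.4% rose and 33.6% changed in either direction, so that calls are common in this comparison. The median log2 fold change of the 9 members was -0.03, beside -0.02 for all genes. IL6R and LIF also had an absolute log2 fold change over 1, which 4.06% of all genes had together with the call (1.71% of them lower). The groups did not overlap in 6 members, the 5 that were called and OSMR, as was so for 49.4% of all genes (24.7% lower and 24.7% higher). Without siDNp63 replicate 1 the same 5 members were called and OSMR was also called lower.

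**Figure D1:**
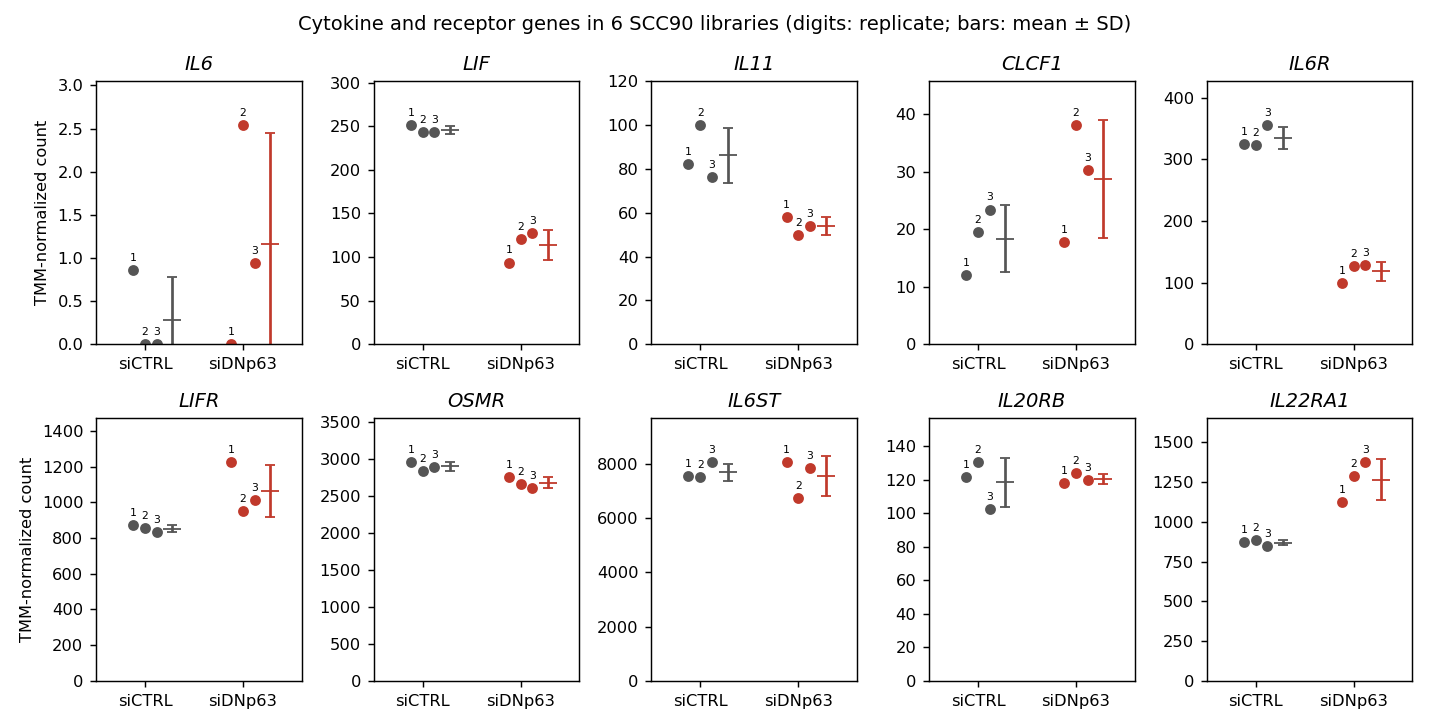
TMM-normalized counts (vertical axes, each from 0) of the 10 genes in the 3 siCTRL (grey) and 3 siDNp63 (red) libraries, with the replicate number above each point and the group mean ± SD beside the points. LIF, IL11 and IL6R are lower in every siDNp63 library, LIFR and IL22RA1 are higher, and IL6 is at or near 0 throughout.

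Among the ligands, LIF, a cytokine that sustains mouse embryonic stem cells and is secreted by many carcinomas, showed the clearest difference. LIF had normalized counts of 252, 244 and 243 in siCTRL replicates 1, 2 and 3 and 93.8, 120.3 and 127 in siDNp63. Every siDNp63 library was far under the narrow range of the controls. LIF (ENSG00000128342; chromosome 22, 30240453 to 30246759 of GRCh38) thus fell 2.15-fold, a log2 fold change of -1.11 (SE 0.13, edgeR-adjusted p = 5.61e-04). The call held without each library in turn, with log2 fold changes between -1.19 and -0.99.

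IL11, which encodes a cytokine first known from bone marrow stroma and also made by tumours, was lower by a smaller margin. IL11 had normalized counts of 82.1, 100.1 and 76.3 in siCTRL and 58.1, 49.8 and 54.1 in siDNp63. The control libraries spread more widely than the siDNp63 libraries, but the groups did not overlap. The log2 fold change of IL11 (ENSG00000095752; chromosome 19, 55364382 to 55370463) was -0.67 (SE 0.17, edgeR-adjusted p = 0.0191). This call rested on each of 3 libraries. It was lost without siCTRL replicate 2 (-0.56, edgeR-adjusted p = 0.0695), without siDNp63 replicate 2 (-0.62, edgeR-adjusted p = 0.0589) and without siDNp63 replicate 3 (-0.67, edgeR-adjusted p = 0.0572).

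CLCF1, which encodes a cytokine that acts on nerve cells and B cells, was near the lower limit of what was measured. For CLCF1 the normalized counts were 12.0, 19.6 and 23.4 in siCTRL and 17.7, 38.1 and 30.2 in siDNp63. The siDNp63 replicate 1 library lay within the control range and the other two above it. Its log2 fold change was 0.68 with a 95% interval from -0.18 to 1.54 (edgeR-adjusted p = 0.201), so that neither no change nor a rise of over 2-fold lay outside the interval. CLCF1 (ENSG00000175505; chromosome 11, 67364168 to 67374177) overlaps exons of ENSG00000256514 on the same strand, and reads may have been divided between them. Without siDNp63 replicate 1 its log2 fold change was 0.92 (edgeR-adjusted p = 0.0687).

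IL6 itself, the cytokine after which the family is named, was not measurable. Its expected counts were 1, 0 and 0 in siCTRL and 0, 3 and 1 in siDNp63, and a count of 0 allows up to 3 counts in a library. IL6 (ENSG00000136244, chromosome 7, 22725884 to 22732002) did not pass the filter on low counts, so no fold change is given for it. The limit of 3 for a count of 0 covers counting error only.

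Of the receptor chains that bind a ligand before gp130 does, IL6R was the member with the largest decrease. Its normalized counts were 325, 323 and 356 in siCTRL and 99.97, 127 and 128 in siDNp63. All siDNp63 libraries were well under all controls, and replicate 1 was the lowest. IL6R (ENSG00000160712; chromosome 1, 154405193 to 154469450), which encodes the IL-6 binding chain of both the membrane and the soluble receptor, fell 2.82-fold (log2 fold change -1.49, SE 0.12, edgeR-adjusted p = 8.00e-05). Leaving out each library in turn gave values between -1.55 and -1.39, all called. The counts are sums over transcripts, so the membrane and soluble forms were not distinguished. PTPRC, a marker of leukocytes, which include cells rich in IL6R, had 8.23 to 10.5 normalized counts in siCTRL and 6.35 to 12.7 in siDNp63. PTPRC was below the filter on low counts. Of the 4 leukocyte markers that were tested, CD14 fell (-1.26, edgeR-adjusted p = 0.0329) and 3 were not called (median log2 fold change -0.42). The part of leukocyte markers in the IL6R difference was not tested.

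LIFR, the chain that pairs with gp130 for LIF, differed in the other direction from its ligand. LIFR had normalized counts of 871, 856 and 831 in siCTRL and 1228, 949 and 1013 in siDNp63. The siDNp63 libraries were all above the controls, with replicate 1 well above the other two. LIFR (ENSG00000113594; chromosome 5, 38474668 to 38608354) rose 1.24-fold, a log2 fold change of 0.32 (SE 0.10, edgeR-adjusted p = 0.0372). The call was lost without siCTRL replicate 1 (edgeR-adjusted p = 0.0769), 2 (0.0876) or 3 (0.101) and without siDNp63 replicate 3 (0.0649), and without siDNp63 replicate 1 the log2 fold change was 0.20 and remained past the threshold. With average transcript length taken into account in edgeR the value was 0.56.

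OSMR encodes the oncostatin M receptor chain, which also serves in the IL-31 receptor. In normalized counts OSMR was at 2969, 2847 and 2894 in siCTRL and 2759, 2668 and 2617 in siDNp63. The groups did not overlap, but the gap between them was small beside the level. The log2 fold change of OSMR (ENSG00000145623; chromosome 5, 38845858 to 38945596) was -0.12, with a 95% interval from -0.21 to -0.02 (edgeR-adjusted p = 0.0566). It was called lower without siDNp63 replicate 1 (-0.13, edgeR-adjusted p = 0.0145) and when libraries were scaled by their totals alone (-0.20, edgeR-adjusted p = 0.00440). Exons of OSMR overlap those of RICTOR on the other strand, and the sources do not say that strand was used in counting.

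IL6ST, the shared gp130 chain, was the most abundant member. Its normalized counts were 7532, 7501 and 8057 in siCTRL and 8081, 6724 and 7849 in siDNp63. The siDNp63 libraries lay both above and under the controls. The log2 fold change of IL6ST (ENSG00000134352; chromosome 5, 55935095 to 55995022) was -0.03, with a 95% interval from -0.19 to 0.14 (edgeR-adjusted p = 0.797), which leaves room for a small change in either direction.

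**Figure D2:**
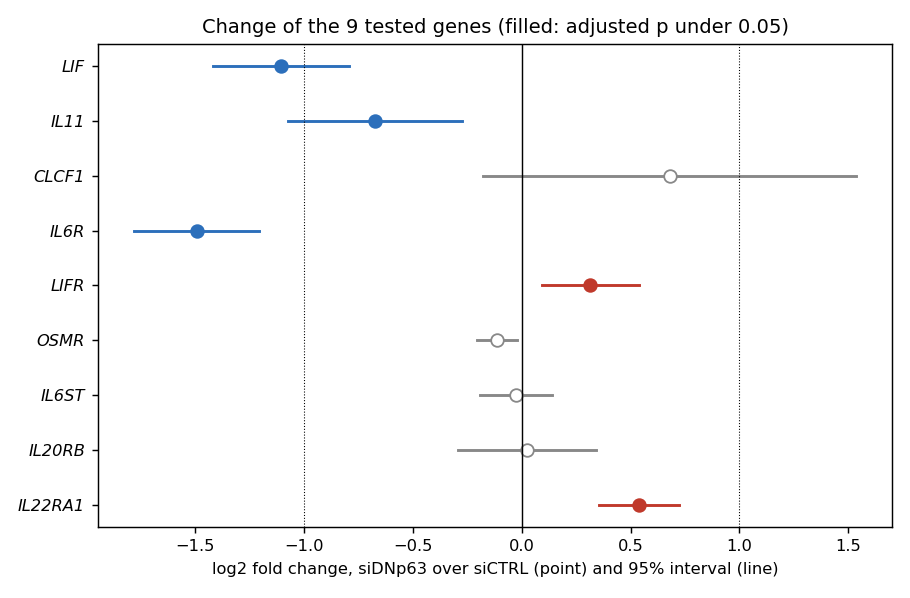
Log2 fold change of siDNp63 over siCTRL (horizontal axis, points) with its 95% interval (lines) for the 9 members that were tested, filled where the edgeR-adjusted p is under 0.05, with dotted lines at a log2 fold change of -1 and 1. IL6R (-1.49) and LIF (-1.11) lie farthest to the left, IL22RA1 (0.54) is the highest of the called members, and the interval of CLCF1 is the widest.

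IL22RA1, the IL-22 binding chain through which epithelia respond to this lymphocyte cytokine, rose. Its normalized counts were 875, 885 and 849.9 in siCTRL and 1125, 1287 and 1379 in siDNp63. The controls lay close together and all siDNp63 libraries were above them, with replicate 1 the lowest of the 3. IL22RA1 (ENSG00000142677; chromosome 1, 24119771 to 24143140) had a log2 fold change of 0.54 (SE 0.08, edgeR-adjusted p = 0.00138), or 1.45-fold. The call held without each library in turn, between 0.47 and 0.62.

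IL20RB, the second chain of the IL-20 and IL-24 receptors, had normalized counts of 122, 131 and 103 in siCTRL and 118, 124 and 119.9 in siDNp63. The siDNp63 libraries lay inside the control range. Its log2 fold change was 0.02 with a 95% interval from -0.29 to 0.34 (edgeR-adjusted p = 0.911). With scaling by library totals alone the value was -0.06. IL20RB (ENSG00000174564; chromosome 3, 136946230 to 137011085) overlaps exons of NCK1 on the same strand.

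Levels of different genes were compared as TPM. In siCTRL, IL6ST had the highest level of the members, 47.2 ± 4.59 TPM (SD, n = 3), followed by OSMR at 22.6 ± 1.10, IL22RA1 at 11.7 ± 0.307 and LIFR at 3.83 ± 0.263. LIFR overlapped its next neighbour IL20RB (3.27 ± 0.559 TPM), and LIF (2.36 ± 0.0609) overlapped IL6R (2.36 ± 0.242), so that the order within these pairs is not resolved. IL11 (1.72 ± 0.340), CLCF1 (0.428 ± 0.133) and IL6 (0 to 0.0895 TPM over the 3 libraries) followed. In siDNp63 the first 5 places were the same, whereas IL11, LIF and IL6R, at 1.05 ± 0.116, 1.04 ± 0.168 and 0.774 ± 0.132 TPM, overlapped in sequence and IL6R also overlapped CLCF1 (0.635 ± 0.223). All 4 ligands were thus under the gp130 chain by a wide margin in both groups.

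**Figure D3:**
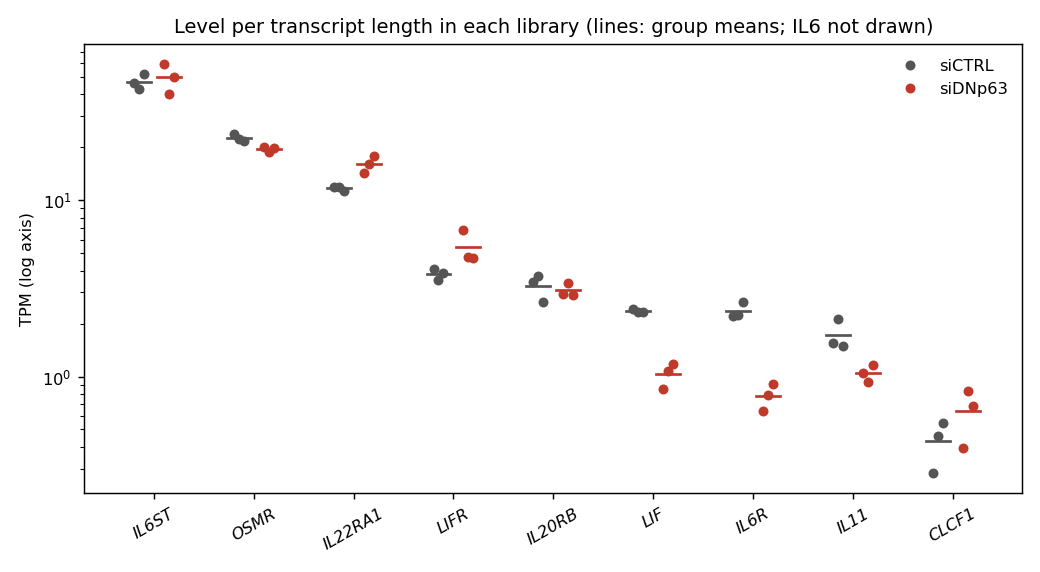
Level per transcript length (TPM, logarithmic vertical axis) of 9 members in each siCTRL (grey) and siDNp63 (red) library, with group means as lines, in the order of the siCTRL means. IL6ST, OSMR and IL22RA1 have the highest levels in both groups, and LIF and IL6R, which overlap at about 2.4 TPM in siCTRL, are both lower in siDNp63. IL6 is left out because it is listed at 0 in 3 libraries.

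The balance of chains that form one receptor was described within each library as the ratio of their TPM levels. IL6R amounted to 4.75%, 5.19% and 5.06% of the IL6ST level in siCTRL and to 1.08%, 1.93% and 1.79% in siDNp63. The groups did not overlap, with siDNp63 replicate 1 the lowest. LIFR amounted to 8.15% ± 0.708 of IL6ST in siCTRL and 10.9% ± 1.33 in siDNp63 (SD, n = 3), again with no overlap, while the ratio of OSMR to IL6ST overlapped (48.3% ± 5.91 and 40.1% ± 6.34). IL22RA1 amounted to 21.1% ± 0.835 of its partner IL10RB in siCTRL and 32.5% ± 3.64 in siDNp63. These ratios were not tested and are given as a description.

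The other receptors of the IL-6 family were measured in the same fit. Of 4 such genes tested, 1 rose and 2 fell (75% called against 33.6% of all genes), with a median log2 fold change of -0.12. IL31RA, which joins OSMR to form the receptor of the itch cytokine IL-31, had 111, 92.8 and 102 normalized counts in siCTRL and 428, 371 and 389 in siDNp63. All siDNp63 libraries were over 3 times the controls, a log2 fold change of 1.95 (SE 0.11, edgeR-adjusted p = 1.33e-05), and the level of IL31RA rose from 10.0% ± 1.87 to 29.6% ± 0.836 of the OSMR level in TPM. IL11RA, the IL-11 binding chain, fell, with 167 ± 7.95 normalized counts in siCTRL and 85.3 ± 6.60 in siDNp63 (log2 fold change -0.97, SE 0.13, edgeR-adjusted p = 7.37e-04), like its ligand IL11. The IL11RA call was lost with transcript lengths in edgeR (-0.76, edgeR-adjusted p = 0.0791). It was also lost with limma on log2(TPM + 0.1) and log2(TPM + 1) (-0.78 and -0.63, adjusted p = 0.0749 and 0.0743). IL27RA, a receptor of IL-27, fell (-0.35, edgeR-adjusted p = 0.0179), a call lost without siCTRL replicate 1 (edgeR-adjusted p = 0.0649) or replicate 2 (0.0754), and CNTFR was at 0.11 (edgeR-adjusted p = 0.721).

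Of the 7 other ligands of the family, 3 passed the filter and 1 was called (33.3% of those tested against 33.6% of all genes). CNTF, a cytokine of nerve and muscle, rose, with 56.3 ± 10.1 normalized counts in siCTRL and 88.1 ± 9.88 in siDNp63 (0.65, edgeR-adjusted p = 0.0330). Its call was lost in 10 of 16 other fits. These were the fits without siCTRL replicate 1 or 3 or any single siDNp63 library (edgeR-adjusted p from 0.0527 to 0.0977) and those by other methods. The latter were DESeq2 (adjusted p = 0.0616), transcript lengths in edgeR (0.0686), the replicate number as a block in edgeR (0.0816) and limma on log2(TPM + 0.1) and log2(TPM + 1). OSM, IL27, EBI3 and IL31 had too few counts to be tested, so the ligands for OSMR and IL31RA were among those not measurable in these cells.

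For the receptors of the IL-10 family, 1 of 4 tested genes other than the members was called (25% against 33.6% of all genes). IL20RA, the partner of IL20RB, rose, with 1326 ± 31.0 normalized counts in siCTRL and 1626 ± 53.9 in siDNp63 (log2 fold change 0.30, SE 0.05, edgeR-adjusted p = 0.00228). The IL20RA call was lost with transcript lengths in edgeR (0.23, edgeR-adjusted p = 0.0586) and with limma on log2(TPM + 0.1) and log2(TPM + 1) (0.17 and 0.16, adjusted p = 0.158 and 0.164). IL10RB, the second chain of the IL-22 receptor, was at -0.05 (edgeR-adjusted p = 0.333). Of 9 ligands in this family only IL19 had enough counts to be tested (0.05, edgeR-adjusted p = 0.929), and IL20, IL22 and IL24 did not.

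The signalling genes downstream of these receptors were called at a share close to that of all genes (35.7% against 33.6%). Of 14 kinases, adaptors, STAT factors and sheddases, 4 fell and 1 rose, none by more than 1 on the log2 scale, and the median was -0.04. Over all genes, only 4.06% were called with a change of more than 1. STAT3, the main transcription factor of the pathway, had 5291 ± 30.1 and 5109 ± 115 normalized counts (-0.05, edgeR-adjusted p = 0.317), and was called lower only with scaling by library totals (-0.14, edgeR-adjusted p = 0.0207). JAK1 (0.14, edgeR-adjusted p = 0.0909) and JAK2 (0.08, edgeR-adjusted p = 0.477), kinases bound to gp130, did not pass, although JAK1 was called higher with DESeq2 (0.15, adjusted p = 0.0469) and without siDNp63 replicate 2 (0.19, edgeR-adjusted p = 0.0286). In contrast TYK2, another such kinase, fell (-0.48, edgeR-adjusted p = 0.0103, and 0.0507 and 0.0563 without siCTRL replicate 1 and 2). GRB2 (-0.40, edgeR-adjusted p = 1.34e-04), which links receptors to RAS, and STAT5B (-0.33, edgeR-adjusted p = 5.04e-04) fell. The STAT5B call was lost with transcript lengths (-0.05, edgeR-adjusted p = 0.726) and with limma on log2(TPM + 0.1) and log2(TPM + 1) (-0.12 and -0.11, adjusted p = 0.465 and 0.470). ADAM17, a membrane protease that sheds IL6R, rose, with 4824 ± 101 normalized counts in siCTRL and 5799 ± 168 in siDNp63 (0.27, edgeR-adjusted p = 0.00142), a call lost with limma on log2(TPM + 0.1) and log2(TPM + 1) (0.19 and 0.18, adjusted p = 0.117 in both).

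Among 10 feedback inhibitors, 2 fell and 2 rose (40% called against 33.6% of all genes, median log2 fold change 0.09). SOCS2, a STAT5-induced inhibitor of growth hormone signalling, had 3113, 3172 and 3068 normalized counts in siCTRL and 1702, 1774 and 1644 in siDNp63 (log2 fold change -0.87, SE 0.04, edgeR-adjusted p = 7.89e-06). CISH, of the same family and also induced by STAT5, had 210.4, 204 and 232 in siCTRL and 83.6, 74.6 and 96.3 in siDNp63 (-1.34, SE 0.14, edgeR-adjusted p = 2.30e-04). In both genes the groups lay far apart. SOCS3, the STAT3-induced inhibitor that binds gp130, had 164, 145 and 181 in siCTRL and 215, 269 and 286 in siDNp63, so that it rose while SOCS2 and CISH fell (0.66, SE 0.14, edgeR-adjusted p = 0.00924). The SOCS3 call was lost with limma on log2(TPM + 0.1) (0.55, adjusted p = 0.0553), while SOCS2 and CISH kept theirs in the 16 other fits. SOCS1 was at 0.90 (edgeR-adjusted p = 0.0578) with 19.0 ± 1.56 and 35.2 ± 11.8 normalized counts, and without siDNp63 replicate 1, where it was at 21.5, it was called higher (edgeR-adjusted p = 0.00710), as it was with a minimum of 10 counts in every library (edgeR-adjusted p = 0.0433).

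**Figure D4:**
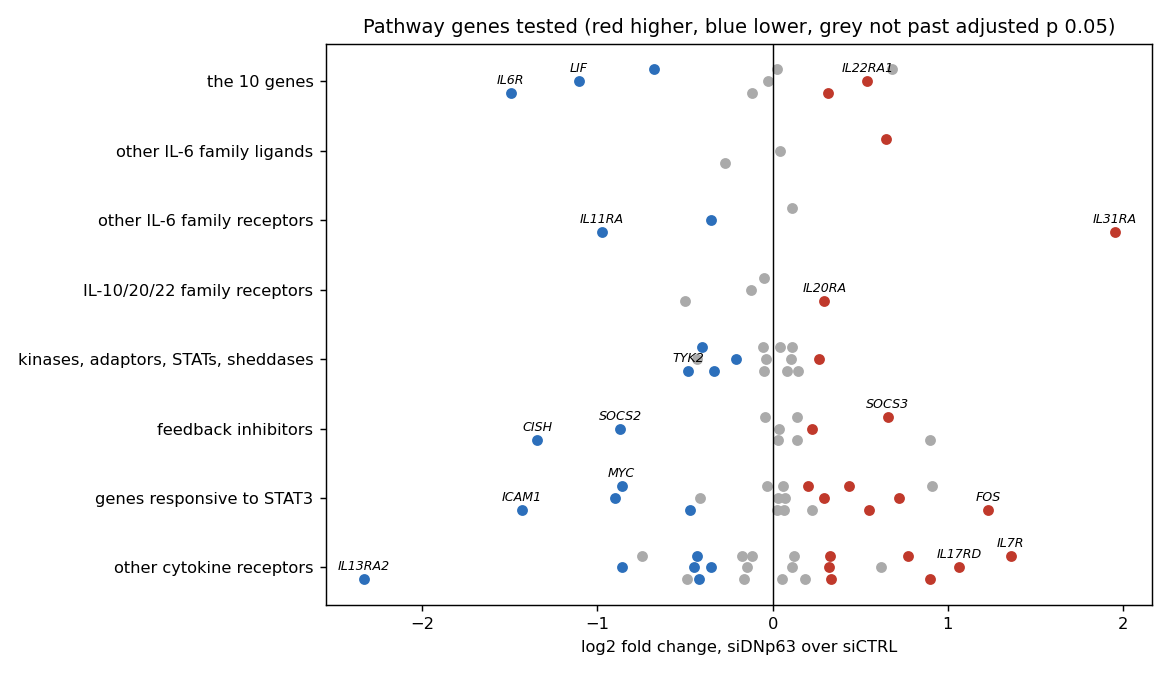
Log2 fold change of siDNp63 over siCTRL (horizontal axis) for every tested gene of the members and 7 other lists (rows), with red for higher, blue for lower and grey for not past an edgeR-adjusted p of 0.05, and vertical offsets only to separate points. IL31RA (1.95) lies farthest to the right, IL13RA2 (-2.33) farthest to the left, and the kinases, adaptors and STAT factors all lie between -0.5 and 0.5.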

How the data were processed

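RNA of 6 SCC90 libraries was compared, 3 siCTRL and 3 siDNp63, grouped by their titles. According to the submitters' processing notes and the study's methods, single-end reads of stranded poly(A) libraries were separated with bcl2fastq 2.17.1.14 and quantified with kallisto 0.46.2 at default options (hg38; the annotation release was not given in the sources used here). Expected counts, as the authors deposited them, are estimated reads per Ensembl gene with no scaling. The TPM columns, also deposited, are abundances per transcript length with equal totals. All 12 columns were used.

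Expected counts were rounded, filtered with edgeR 4.0.16 (filterByExpr, minimum count 10), scaled by TMM and fitted with the quasi-likelihood model with group as the only term, over 17257 genes. Normalized counts use the unrounded values. Intervals are 95% intervals of edgeR's coefficient. The test was checked on simulated counts. Names came from a gene name table (35538 of 40488 IDs matched), coordinates from GENCODE and promoters from RefSeq, both on GRCh38. The motifs were searched on both strands. Motif letters are a description, not a binding site.

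The members and lists were chosen with earlier results of these data known. The genes named are the 10 members, TP63, the main JAK, STAT3 and SOCS genes, and from each list the genes past both thresholds (adjusted p under 0.05, absolute log2 fold change over 1) or up to 4 with the smallest p. A few others (CNTFR, IL10RB, IL19, IL13RA1, S100A8, S100A9, PTPRC and the called cell type markers) were added for their role after their values were seen. TNFRSF1A and CCND1 were named because their calls depended on the fit. Alternatives were DESeq2 1.42.0, limma 3.58.1 (voom, and log2(TPM + 0.1) or log2(TPM + 1)), other scalings and filters, transcript lengths as an offset, the replicate number as a block, an adjusted p under 0.005 and leaving out each library.

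Totals of 35716277 to 52598831 counts mean that genes with few counts carry a large counting error. No 2 libraries had the same values.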

Additional observations from a re-analysis of the deposited data

How the results depend on the processing

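Under 17 alternatives, LIF, IL6R, IL22RA1 and TP63 kept their direction and their call, also at the stricter limit of 0.005. The 3 members called lower became 2 to 4. Of the 2 called higher, 1 (IL22RA1) was left with scaling by library totals, with limma on log2(TPM + 0.1) and on log2(TPM + 1) and at an adjusted p under 0.005, and leaving out single libraries gave 1 to 2. IL11 was not called in 7 alternatives and LIFR in 8, and OSMR was called in 3. IL6ST, never called, changed sign with transcript lengths (0.14) and with limma on log2(TPM + 0.1) and log2(TPM + 1) (0.0710 and 0.0699), and lay between -0.0773 and 0.0512 when single libraries were left out. IL20RB, never called, was at -0.0618 with library totals, -0.0162 with transcript lengths, -0.0663 and -0.0538 with limma on log2(TPM + 0.1) and log2(TPM + 1), and between -0.0690 and 0.0949 without single libraries. Other pathway genes called higher numbered 19, and 9 and 11 with limma on TPM at the lower and the higher pseudocount. Of all genes, 2626 were called lower and 3177 higher (54.7% higher), 4117 and 2330 with library totals (36.1% higher, median log2 fold change -0.11), 1678 and 1668 higher with limma on log2(TPM + 0.1) and log2(TPM + 1), and at the limit of 0.005 there were 1137 lower and 1767 higher. The cause of these shifts was not tested.

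Same-numbered libraries did not deviate together (correlations of -0.01 to 0.03). With 3 libraries per group, this does not settle whether the numbers pair the samples. With the replicate number as a block, 2 members were called lower and 2 higher, IL11 not being called (edgeR-adjusted p = 0.0568), and 2175 genes were called lower and 2777 higher. IL6, CLCF1 and the untested ligands had few or no counts, and the reason was not tested.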

Other observations

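Genes known to respond to STAT3 in epithelia moved in both directions. Of 29 such genes 19 were tested, and 6 rose and 4 fell (52.6% called against 33.6% of all genes). Of those that rose, TNFRSF1A (0.20, edgeR-adjusted p = 0.0451) lost its call in 11 of 16 other fits and CCND1 in 2. The other called genes of the list kept theirs. Their median log2 fold change was 0.06, beside -0.02 for all genes tested, and -0.02 and -0.11 with scaling by library totals. FOS, an AP-1 subunit, was higher, at 242 ± 21.0 normalized counts against 103 ± 2.01 (log2 fold change 1.23, edgeR-adjusted p = 1.41e-04), and PIM1, a survival kinase, rose from 9387 ± 145 to 15492 ± 303 (0.72, edgeR-adjusted p = 7.08e-06). ICAM1, an adhesion molecule for leukocytes, fell from 141 ± 14.4 to 51.6 ± 10.9 (-1.43, edgeR-adjusted p = 8.20e-04), and MYC fell (-0.86, edgeR-adjusted p = 3.46e-05). BCL2L1, an inhibitor of apoptosis, rose (0.43, edgeR-adjusted p = 6.34e-04). The acute-phase and antimicrobial genes SERPINA3, LCN2, SAA1, SAA2 and DEFB4A had too few counts to be tested. S100A8 and S100A9 of the same list were tested and not called (0.06 and 0.02, edgeR-adjusted p = 0.909 and 0.957).

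Receptors for other cytokines also moved both ways, with 7 higher and 6 lower of 24 tested (54.2% called against 33.6% of all genes, median -0.03). IL7R, the IL-7 receptor chain that also binds TSLP, went up from 51.6 ± 5.15 to 133 ± 13.9 (1.36, edgeR-adjusted p = 4.12e-04, but 0.0549 with limma on log2(TPM + 0.1)), and IL17RD, a receptor-like inhibitor of FGF signalling, likewise (log2 fold change 1.06, SE 0.08, edgeR-adjusted p = 6.09e-05). IL13RA2, a decoy receptor of IL-13, fell from 40.1 ± 12.1 to 7.92 ± 2.85 (-2.33, edgeR-adjusted p = 0.00209), while IL13RA1, the signalling receptor, rose (0.33, edgeR-adjusted p = 4.40e-04). IL17RE, an IL-17C receptor chain of epithelia, fell from 722 ± 19.7 to 398 ± 11.1 (-0.86, edgeR-adjusted p = 6.09e-05). IFNGR1, the ligand-binding chain of the interferon gamma receptor, rose (0.77, edgeR-adjusted p = 2.53e-05).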
